A study of Mus musculus with 6 samples.

Results

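Genes for ubiquitin ligases, ubiquitin-conjugating enzymes and deubiquitinases were examined in primary mouse Sertoli cells, the somatic cells that nurse germ cells in the seminiferous tubule. The genes were chosen by symbol, as those beginning with Rnf, Usp, Klhl, Asb or Trim and a digit, or with Fbxo, Fbxl, Fbxw, Ube2 or Otud. Usp18 and Trim30a were left out. The rule found 45 of the 3257 genes with a single row in the authors' deposited table. They comprised 13 Trim, 12 Rnf, 5 Klhl, 4 Fbxo, 3 Usp, 3 Otud, 2 Fbxw, 2 Ube2 genes and 1 Asb gene, and no Fbxl gene.

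Both groups were primary Sertoli cells on a C57BL/6 background, enriched by differential plating, with 3 libraries each. Wild-type cells had been infected with an empty plasmid, and UXT KO cells, taken from UXT KO animals, with a viral construct that carried Cre recombinase. Cells of both groups went through repeated rounds of infection. UXT belongs to the prefoldin-like chaperones, and the comparison asks which transcripts differ in its absence. The labels name no allele, and the loss of UXT cannot be told apart from exposure to the Cre construct. Whether replicates were separate animals, cultures or repeat preparations is not labelled, so p-values cover library-to-library spread, which may be technical.

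Ubiquitin is activated by an E1 enzyme, passed to an E2 enzyme (the Ube2 family) and attached to a target protein with the help of an E3 ligase, and deubiquitinases such as the Usp and Otud families remove it. Rnf and Trim proteins are mostly single-chain E3 ligases with a RING domain. F-box proteins (Fbxo, Fbxl, Fbxw), kelch-like proteins (Klhl) and SOCS-box proteins (Asb) are the parts of cullin ligases that bind the target. In the testis this system takes part in protein turnover, in the remodelling of cell junctions and in the response to virus and interferon.

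The table held only genes that the authors had selected for a fold of 1.5 or more in these very libraries, and 99.6% of its genes were called (adjusted p under 0.05) by limma. Calls on members are therefore no independent evidence of a difference. Uxt itself was not among the rows of the table, so the loss of its transcript could not be checked here. The depth of the libraries was unknown, since the values were log2 values and not counts. Of 20 Sertoli cell markers 16 were in the table, with a summed log2 level of 17.03 to 17.46 in wild-type and 15.74 to 16.18 in knockout libraries. Markers of other cells moved as well. All 20 macrophage markers and 17 of 20 endothelial markers were in the table and lower in the knockout. Since the scale of the values is not stated, a low value cannot be read as presence or absence of a transcript. For macrophage markers the summed log2 level went from between 14.94 and 15.30 to between 13.47 and 13.70. For endothelial markers it went from between 14.01 and 14.11 to between 13.18 and 13.38. Such sums mostly follow the markers with the highest values. By median fold in the authors' deposited table, endothelial markers fell 11.9-fold, macrophage markers 5.89-fold and Sertoli markers 3.58-fold. All 10 myoid markers were also lower (19.01 to 19.33 against 18.53 to 18.73), and so were the 6 fibroblast markers in the table (20.47 to 20.62 against 19.41 to 20.14). Of the 4 Leydig markers in the table, all but 1 were higher, and of the 3 germ cell markers Kit and Sycp3 were lower and Uchl1 higher. The part of these other cells in the results below was not tested, and in such bulk libraries fewer cells of a type and less RNA per cell cannot be told apart.

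Of the 45 genes, 16 rose, 28 fell and 1, Trim69, did not pass (limma adjusted p under 0.05). Of all genes in the table, 32.1% were called higher and 67.5% lower. After quantile normalization between libraries, 17 of the 45 were higher and 6 lower, and 18 and 6 after centring each library on its median. Both scalings level the libraries over a table in which most genes were lower, and moved the median difference over all its genes upward, by 0.33 and 0.30 on the log2 scale. Rises keep their calls under such a shift and small falls lose them, so these counts do not compare rises with falls. Below, rescaled differences are limma differences after quantile normalization and after centring, in that order. The median wild-type level of the 17 genes listed as higher was 10.47 on the log2 scale, and that of the 28 lower genes was 7.92. The same medians over all genes were 9.64 and 8.77. These values are not stated to be corrected for transcript length, so their order between genes is not an order of abundance. Of the 17 higher genes 3 reached 2-fold in the authors' deposited table, against 14 of the 28 lower genes, while 29.2% of all higher and 65.6% of all lower genes did. The median fold was 1.59 among the higher and 2.06 among the lower members in the authors' deposited table, beside medians of 1.75 and 2.33 for all of its genes.

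**Figure D1:**
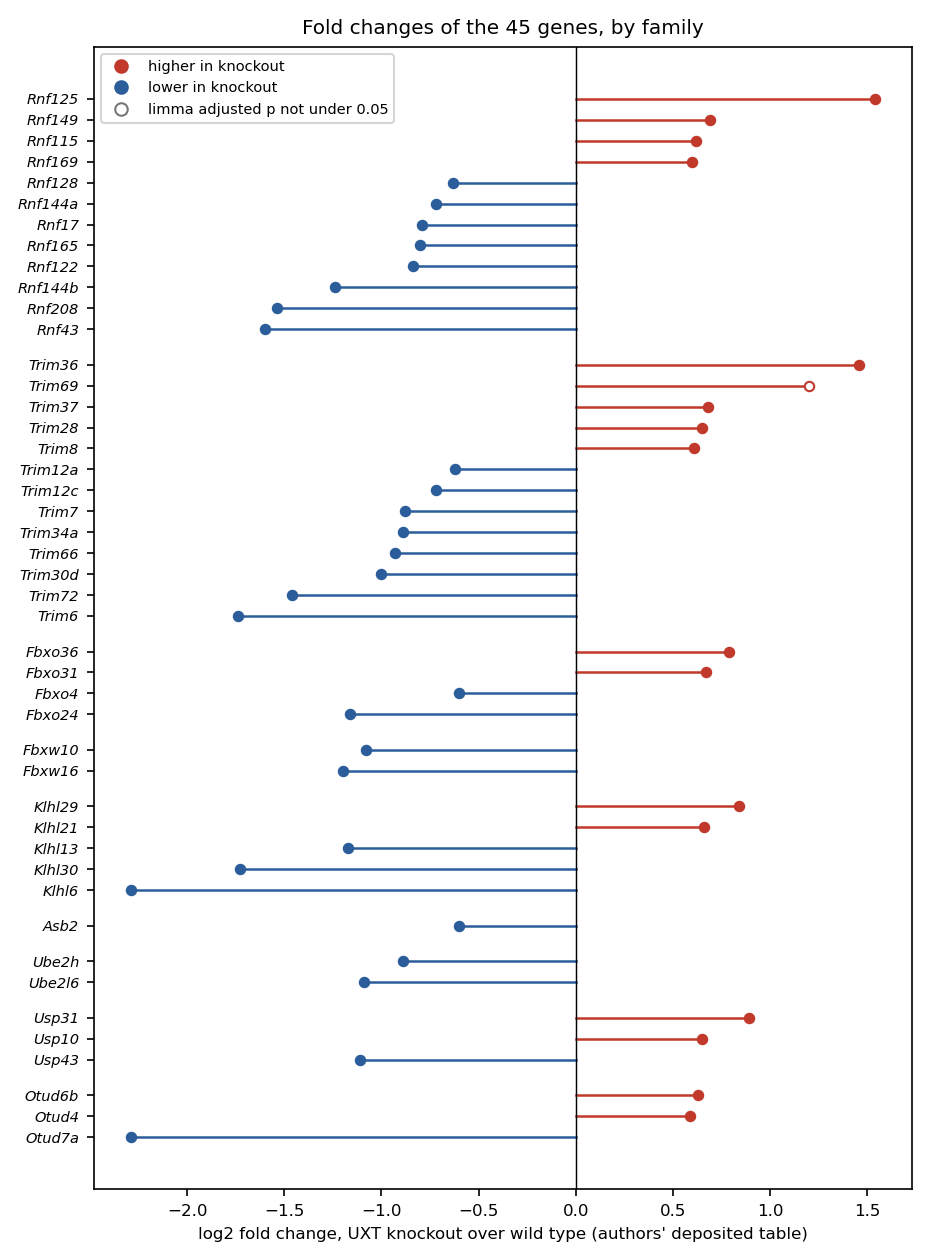
Each gene's log2 fold change from the authors' deposited table (horizontal axis, knockout over wild type), grouped by family and coloured by direction. Falls reach further than rises, with Klhl6 and Otud7a lowest and Rnf125 highest, and the open point is Trim69, which limma did not call.

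In 44 of the 45 genes all 3 knockout values lay on one side of all 3 wild-type values, as was so for 97.5% of the table. The exception was again Trim69. The median SD over the 45 genes was 0.083 in wild-type and 0.097 in knockout libraries (n = 3 each, log2 scale). Over all genes it was similar, 0.093 and 0.102.

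**Figure D2:**
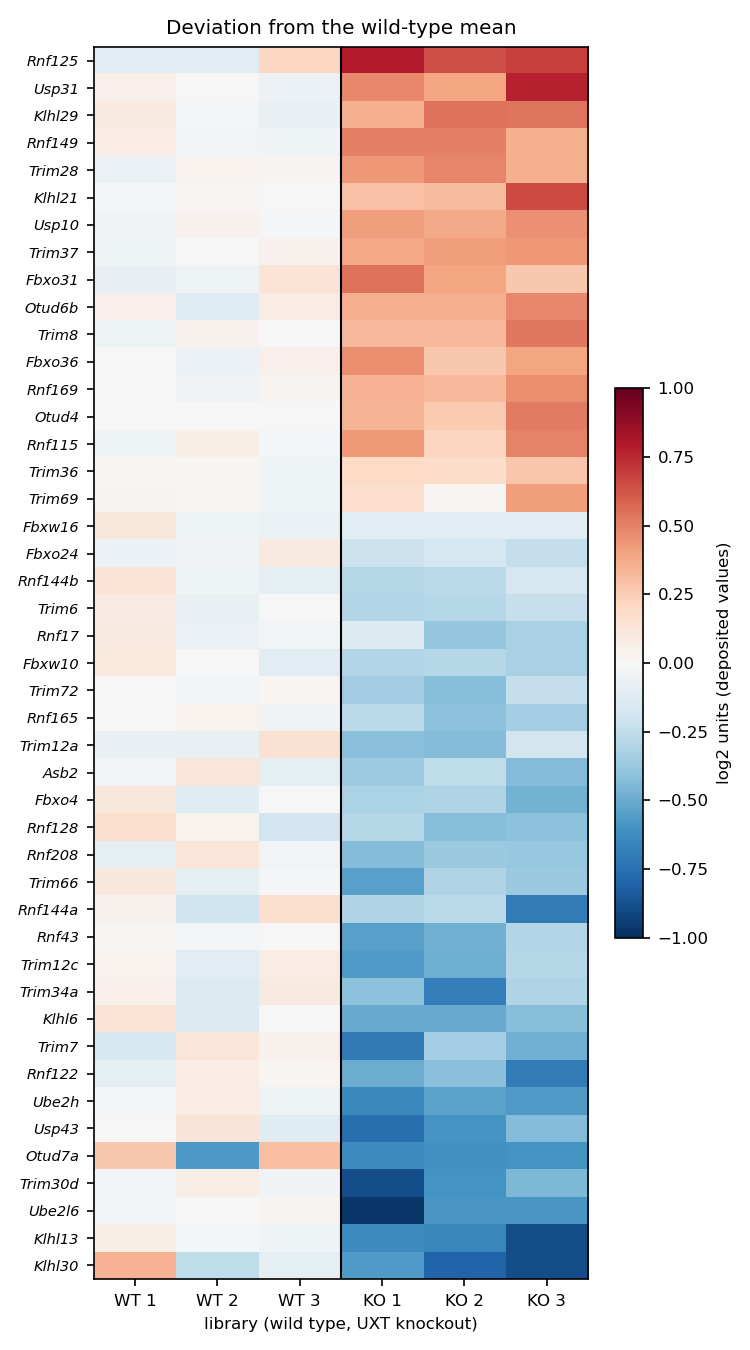
Deviation of each library (columns) from the mean of the 3 wild-type libraries for the 45 genes (rows), in log2 units of the deposited values, ordered by the limma difference. Knockout columns are red for the genes at the top and blue below, and the second wild-type library stands at the knockout level for Otud7a.

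The conjugating enzyme gene Ube2l6 fell. It encodes the E2 that passes the ubiquitin-like protein ISG15 to its targets, and is itself induced by interferon. Ube2l6 (gene ID 56791, chromosome 2, 84798828 to 84810003 in GRCm38) had log2 values of 11.01, 11.04 and 11.07 in wild-type libraries 1, 2 and 3, and of 10.07, 10.46 and 10.46 in knockout libraries 1, 2 and 3. The groups were well apart, and the first knockout library was the lowest. The means were 11.04 ± 0.03 and 10.33 ± 0.22 (SD, n = 3 each). By limma the difference was -0.71 ± 0.11 (SE, adjusted p = 0.000373), and the authors' deposited table gave a fold of 2.13. The other steps of the same conjugation pathway, none of them members, were lower too. Isg15, the modifier itself, fell 2.65-fold, the E1 gene Uba7 4.65-fold and Herc6, the mouse ISG15 ligase, 3.49-fold in the authors' deposited table. Isg15 stood at 12.28, 12.32 and 12.39 in wild-type and at 10.75, 11.42 and 11.52 in knockout libraries, again with the first knockout library lowest. That library also had the lowest median over all genes, 8.82 against 8.88 and 8.91 in knockout libraries 2 and 3. Ube2h, an E2 that works with the CTLH ligase complex, had the highest values of the lower members. It went from 12.93, 13.03 and 12.90 to 12.31, 12.42 and 12.39, a limma difference of -0.58 ± 0.07 (SE, adjusted p = 0.000145) and a fold of 1.85 in the authors' deposited table. The table held only 2 of 37 annotated Ube2 genes, both lower, as were 67.5% of all genes. They therefore give no direction for the family.

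Among the tripartite motif genes, 8 fell, 4 rose and Trim69 did not pass, beside 67.5% lower and 32.1% higher over all genes. Of the 8 that fell, 5 lie within 289 kb of chromosome 7 (104218795 to 104507853 in GRCm38). The block holds 11 protein-coding genes in the RefSeq annotation, 6 of which were in the table. The members among these 6 were Trim6, Trim34a, Trim12a, Trim12c and Trim30d. The last 4 are mouse relatives of the antiviral restriction factor TRIM5 that respond to interferon. The block was drawn from the start of Trim6 to the end of Trim30d, so its 5 members were lower by construction. The other gene, Trim30a, left out of the members, was lower too, as were 67.5% of all genes. Chromosome 7 carried 11 of the 45 members in all, among them Trim28, Rnf169 and Usp31, which rose. The share of all table genes on chromosome 7 was not computed.

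Promoter sequences are shown for the interferon-induced members, because a short interferon-stimulated response element was searched in them. A list of 24 interferon-induced genes of these families had 5 in the table, all lower, as were 67.5% of all genes. Of the 5, 3 were still called lower after quantile normalization and 2 after centring. The Trim genes among them are neighbours on chromosome 7 with close copies, so the 5 are not separate observations. The motif was GAAA, any 2 bases and GAAA again, or its reverse complement with TTTC in place of GAAA, and matches are in capitals. A match is a description, not a binding site or a cause. Each line runs 5′ to 3′ on the gene's strand, from 100 bases before to 30 bases after the annotated start (RefSeq, GRCm38.p6). The windows are chr7:104315466-104315595 (minus strand) for Trim12a, chr7:104353320-104353449 (minus) for Trim12c, chr7:104507820-104507949 (minus) for Trim30d, chr7:104244357-104244486 (plus) for Trim34a and chr2:84798728-84798857 (plus) for Ube2l6.
Trim12a: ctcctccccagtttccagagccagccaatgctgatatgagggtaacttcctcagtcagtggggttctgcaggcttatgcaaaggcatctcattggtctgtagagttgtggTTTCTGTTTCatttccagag
Trim12c: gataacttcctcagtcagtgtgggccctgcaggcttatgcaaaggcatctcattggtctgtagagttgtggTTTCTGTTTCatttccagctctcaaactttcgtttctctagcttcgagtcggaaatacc
Trim30d: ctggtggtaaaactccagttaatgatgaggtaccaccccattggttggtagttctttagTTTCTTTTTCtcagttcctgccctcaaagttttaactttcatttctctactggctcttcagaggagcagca
Trim34a: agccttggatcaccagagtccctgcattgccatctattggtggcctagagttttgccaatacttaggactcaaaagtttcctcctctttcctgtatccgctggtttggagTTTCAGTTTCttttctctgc
Ube2l6: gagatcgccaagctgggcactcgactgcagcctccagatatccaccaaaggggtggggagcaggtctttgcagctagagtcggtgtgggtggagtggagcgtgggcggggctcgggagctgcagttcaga

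The motif began 11 bases after the start in Trim12a and Trim34a, and 29 and 41 bases before it in Trim12c and Trim30d. The windows of Trim12a and Trim12c shared an unbroken run of 63 bases around it, placed differently relative to the annotated starts. Ube2l6 had no match of these letters in its 300 bases. Matches stood in 4 of the 5 interferon-induced members and in 1 more of the 35 members with a promoter in the RefSeq table, Fbxo36, which rose. For comparison, 3.99% of 27025 genes with a promoter and 6.79% of the 1620 lower genes of the table with one held the motif in a window of 300 bases. None of the 17 other lower members with a promoter did.

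Trim30d fell the most among the 4 TRIM5 relatives. Its log2 values were 10.56, 10.65 and 10.55 in wild-type and 9.70, 9.99 and 10.14 in knockout libraries, with the first knockout library lowest. The limma difference was -0.64 ± 0.11 (SE, adjusted p = 0.000695) and the authors' deposited table gave a fold of 1.99. Trim12c went from 10.40, 10.26 and 10.44 to 9.80, 9.88 and 10.08 (1.64-fold in the authors' deposited table; limma adjusted p = 0.00203), with rescaled differences of -0.29 and -0.15, the second not called. Trim34a went from 8.38, 8.19 and 8.42 to 7.92, 7.65 and 8.03 (1.85-fold in the authors' deposited table; limma adjusted p = 0.0051), but its rescaled differences were -0.02 and -0.17, neither called. Their groups did not overlap. Trim12a went from 8.87, 8.87 and 9.10 to 8.53, 8.51 and 8.76 (1.54-fold in the authors' deposited table; limma adjusted p = 0.0121), but its difference of -0.35 was 0.02 and -0.05 when rescaled, neither called, and without wild-type replicate 3 its adjusted p was 0.0531. These genes have close copies, so reads may have been shared between them and their values are uncertain. The longest coding transcripts of Trim12a and Trim12c were 96% identical over 967 bases, those of Trim34a and Trim34b 98.7% over 1827 bases, and those of Trim30d and Trim30a 83% over 1998 bases.

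**Figure D3:**
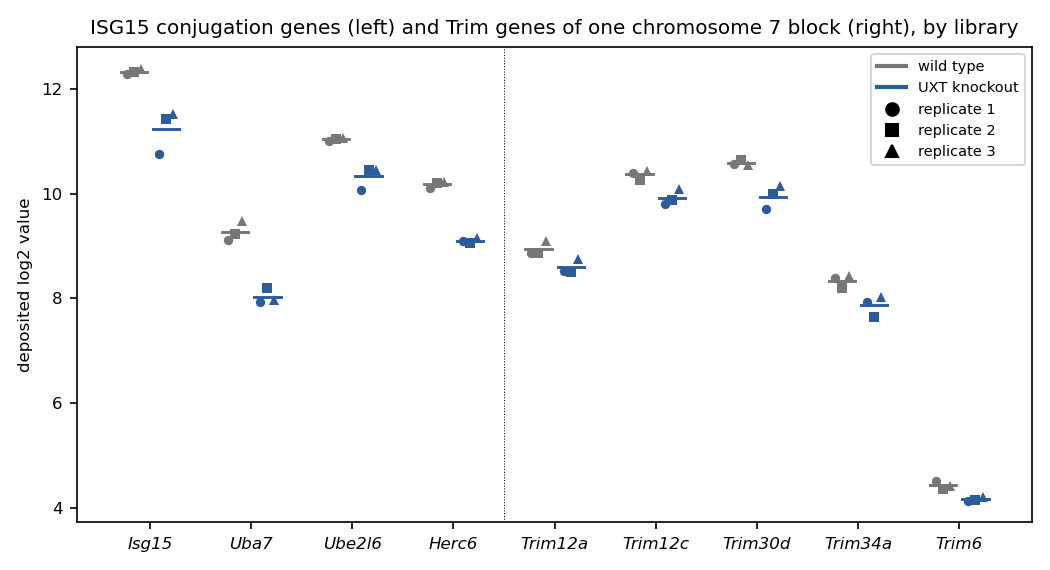
Deposited log2 values by library for genes of ISG15 conjugation (left of the dotted line) and for the 5 members in the chromosome 7 block (right), with bars at the group means (n = 3 each). In all 9 genes the 3 knockout values lie below the 3 wild-type values, and the first knockout library is the lowest for 6 of them, Isg15, Uba7, Ube2l6, Trim12c, Trim30d and Trim6. That library also has the lowest median over all genes, and for Trim6 it stands at 4.13 against 4.14 and 4.20.

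Trim6, which makes free ubiquitin chains in interferon signalling, had the largest fold among the lower Trim genes, 3.35 in the authors' deposited table, at low values. Its log2 values were 4.51, 4.35 and 4.42 in wild-type and 4.13, 4.14 and 4.20 in knockout libraries (limma adjusted p = 0.00184). Rescaled, its difference of -0.27 was -0.08 and 0.03, neither called. Trim72, known as the muscle membrane repair protein MG53, went from 5.16, 5.13 and 5.18 to 4.81, 4.73 and 4.92 (2.75-fold lower in the authors' deposited table; limma adjusted p = 0.00131), with rescaled differences of -0.10 and -0.04, neither called. The remaining lower Trim genes were Trim7, a ligase that binds glycogenin, and Trim66, a relative of the TIF1 co-repressors expressed in testis. Trim7 lay between 9.10 and 9.38 in wild-type and between 8.55 and 8.92 in knockout libraries, and fell 1.84-fold in the authors' deposited table. Its rescaled differences of -0.20 and -0.22 were not called. Trim66 lay between 7.41 and 7.62 in wild-type and between 6.96 and 7.20 in knockout libraries, and fell 1.91-fold in the authors' deposited table, although its difference of -0.40 was 0.03 and -0.11 when rescaled, neither called.

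Of the Trim genes 4 rose. Trim28, the KAP1 co-repressor that zinc finger proteins recruit to silence retroelements, had the highest values of all members. Its log2 values were 13.42, 13.52 and 13.51 in wild-type and 13.92, 13.97 and 13.84 in knockout libraries, a limma difference of 0.43 ± 0.08 (SE, adjusted p = 0.000748) and a fold of 1.57 in the authors' deposited table. Trim37, a ligase of centrosomes and peroxisomes, went from 9.67, 9.71 and 9.75 to 10.10, 10.13 and 10.14 (1.60-fold higher in the authors' deposited table; limma adjusted p = 0.000793). Trim8 went from 12.64, 12.74 and 12.70 to 13.02, 13.02 and 13.22 (1.53-fold higher in the authors' deposited table; limma adjusted p = 0.00171). In each of the 3 genes the groups were separate and the SD within a group was at most 0.12. Trim36 stood at 4.25, 4.25 and 4.19 in wild-type and 4.43, 4.41 and 4.51 in knockout libraries, and rose 2.75-fold in the authors' deposited table (limma adjusted p = 0.00303). Trim69 was at 4.26, 4.25 and 4.19 against 4.41, 4.25 and 4.65, so the second knockout library lay among the wild-type ones. The authors' deposited table gave it a fold of 2.30 (higher) with an adjusted p of 0.042. Its limma adjusted p was 0.0501, and 0.00803 without UXT KO replicate 2. Leaving out any other library gave limma adjusted p of 0.0687 to 0.188. The highest was without UXT KO replicate 3, where the difference went from 0.21 to 0.10.

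Among the Rnf genes 8 fell and 4 rose, beside 67.5% lower and 32.1% higher over all genes. The largest fall was that of Rnf43, a membrane ligase that removes Frizzled receptors and so restrains Wnt signalling. Rnf43 (gene ID 207742) lies on chromosome 11 at 87663087 to 87735539 (GRCm38). It went from 5.63, 5.59 and 5.61 to 5.07, 5.13 and 5.32, a limma difference of -0.44 ± 0.08 (SE, adjusted p = 0.000849) and a fold of 3.04 in the authors' deposited table. The rescaled differences of Rnf43 were -0.10 (limma adjusted p = 0.292) and -0.14 (limma adjusted p = 0.127), so its call ended under both scalings. Its close relative Znrf3, no member and named after its values were seen, rose 1.80-fold in the authors' deposited table, from a mean of 9.11 to 9.60 (limma adjusted p = 0.00145). Rnf208 went from 5.80, 6.01 and 5.86 to 5.46, 5.52 and 5.51 (2.91-fold lower in the authors' deposited table; limma adjusted p = 0.00132), but its rescaled differences were -0.04 and -0.10, neither called. Rnf122 lay between 10.91 and 11.08 in wild-type and between 10.31 and 10.59 in knockout libraries, and fell 1.80-fold in the authors' deposited table. Rescaled, its difference of -0.54 was -0.41 and -0.24, the second not called.

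Rnf144a and Rnf144b encode ligases of the RING-between-RING type, which carry ubiquitin on themselves before passing it on. Rnf144b went from 5.0, 4.82 and 4.78 to 4.58, 4.60 and 4.70 (2.36-fold lower in the authors' deposited table; limma adjusted p = 0.0105), and was called under neither scaling, its difference of -0.24 turning to 0.06 with centred libraries. Rnf144a was at 9.18, 8.94 and 9.30 against 8.84, 8.87 and 8.44, with wide spread in both groups (limma adjusted p = 0.0146, and 0.0623 without wild-type replicate 3). Its fold in the authors' deposited table was 1.65, and its rescaled differences of -0.09 and -0.13 were not called. Rnf128, also called GRAIL and known from T cell anergy, lay between 9.88 and 10.23 in wild-type and between 9.65 and 9.79 in knockout libraries, and fell 1.54-fold in the authors' deposited table, with rescaled differences of -0.16 and -0.08, neither called. Rnf165, an enhancer of BMP signalling in neurons, was 1.74-fold lower in the authors' deposited table, and its difference of -0.34 was 0.08 and -0.04 when rescaled, neither called. Rnf17, a germ cell tudor protein, went from 6.83, 6.67 and 6.71 to 6.60, 6.35 and 6.41 (1.72-fold lower in the authors' deposited table; limma adjusted p = 0.0167). Its adjusted p was 0.0565 without wild-type replicate 1 and 0.0658 without UXT KO replicate 2, and its difference of -0.29 was 0.19 and 0.01 when rescaled, neither called.

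Rnf125 had the largest rise of all 45 genes. It encodes a ligase that marks the RNA sensor RIG-I for degradation. Its log2 values were 6.90, 6.90 and 7.21 in wild-type and 7.80, 7.65 and 7.69 in knockout libraries, with a gap of 0.44 between the groups. The limma difference was 0.71 ± 0.11 (SE, adjusted p = 0.000412), beside a fold of 2.91 that the authors' deposited table gave. The remaining 3 Rnf genes that rose had smaller differences. Rnf149, a membrane-bound ligase, went from 12.27, 12.17 and 12.15 to 12.70, 12.70 and 12.55 (1.61-fold higher in the authors' deposited table; limma adjusted p = 0.000645). Rnf115 went from 10.44, 10.55 and 10.46 to 10.91, 10.70 and 10.98 (1.53-fold higher in the authors' deposited table; limma adjusted p = 0.00313). Rnf169, which binds ubiquitinated histone at DNA breaks, lay between 10.93 and 10.99 in wild-type and between 11.29 and 11.43 in knockout libraries, and rose 1.52-fold in the authors' deposited table.

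Of the kelch-like genes 3 fell and 2 rose, beside 67.5% lower and 32.1% higher over all genes. Klhl6, an adaptor known from B cells, had the largest fold of all 45 genes, 4.90 (lower) in the authors' deposited table. Klhl6 (gene ID 239743, chromosome 16, 19946492 to 19983049 in GRCm38) had log2 values of 5.61, 5.33 and 5.46 in wild-type and 4.96, 4.96 and 5.04 in knockout libraries (limma difference -0.48 ± 0.08, SE, adjusted p = 0.000573). Its call ended under both scalings, with rescaled differences of -0.16 (limma adjusted p = 0.114) and -0.19 (limma adjusted p = 0.075). Klhl30 went from 7.82, 7.22 and 7.38 to 6.91, 6.67 and 6.59, and the first wild-type library stood above the other 2. Its fold was 3.31 (lower) in the authors' deposited table, and its limma difference, -0.75 ± 0.16 (SE, adjusted p = 0.00169), was the most negative of the 45. Rescaled, it was -0.31 and -0.46, the first not called. Klhl13 (gene ID 67455, chromosome X, 23219271 to 23365161 in GRCm38), which guides a CUL3 ligase to Aurora B in mitosis, went from 10.36, 10.29 and 10.26 to 9.67, 9.65 and 9.42. Its limma difference was -0.72 ± 0.09 (SE, adjusted p = 0.00014), the smallest adjusted p of the 45, and its fold in the authors' deposited table was 2.26. Klhl21, an adaptor for the same kinase, moved the other way, from 10.93, 10.96 and 10.95 to 11.24, 11.26 and 11.60 (1.59-fold higher in the authors' deposited table; limma adjusted p = 0.00386). Klhl29 went from 8.92, 8.81 and 8.75 to 9.18, 9.37 and 9.36 (1.79-fold higher in the authors' deposited table; limma adjusted p = 0.00124).

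Base composition of the promoters was compared next, since the choice by symbol did not use it. The median number of CpG dinucleotides in the window of 300 bases was 25 in the 13 members with a promoter that were listed as higher, Trim69 included, and 6.75 in the 22 lower ones, and the median GC content was 65.3% and 51.1%. Over the table the medians were 21 CpG in 848 higher and 12 in 1620 lower genes, with GC contents of 60% and 58.3%. These are descriptions, with no test, and single genes went against the medians. Otud7a, which was lower, had 51 CpG, the lower Rnf144b 27 and 17 in its 2 windows, and Trim69, listed as higher, 4 and 8. Of the kelch-like genes, Klhl29 and Klhl6 are shown, with the 250 bases before the annotated start (RefSeq, GRCm38.p6, 5′ to 3′ on the gene's strand, CpG in capitals). They were chosen after their CpG numbers were seen, as a rich and a poor window, and do not stand for the other members. The window of Klhl29 is chr12:5375683-5375932 (minus strand) with 27 CpG, and that of Klhl6 chr16:19983050-19983299 (minus strand) with 4.
Klhl29: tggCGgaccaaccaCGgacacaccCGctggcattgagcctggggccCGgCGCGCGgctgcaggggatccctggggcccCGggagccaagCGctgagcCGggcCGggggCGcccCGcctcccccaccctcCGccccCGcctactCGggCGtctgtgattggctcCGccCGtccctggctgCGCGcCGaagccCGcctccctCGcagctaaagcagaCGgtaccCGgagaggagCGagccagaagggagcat
Klhl6: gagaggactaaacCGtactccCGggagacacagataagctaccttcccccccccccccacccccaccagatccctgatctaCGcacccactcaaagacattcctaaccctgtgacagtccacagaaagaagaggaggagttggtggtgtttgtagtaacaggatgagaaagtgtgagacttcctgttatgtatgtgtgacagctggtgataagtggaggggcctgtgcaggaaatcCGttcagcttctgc

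Of the Fbxo genes 2 rose and 2 fell, beside 32.1% higher and 67.5% lower over all genes. Fbxo31 and Fbxo4 encode ligase subunits that both target cyclin D1. Fbxo31 went from 9.41, 9.44 and 9.63 to 10.04, 9.89 and 9.76 (1.59-fold higher in the authors' deposited table; limma adjusted p = 0.0043), and Fbxo4 from 10.09, 9.85 and 9.98 to 9.66, 9.67 and 9.50 (1.52-fold lower in the authors' deposited table; limma adjusted p = 0.00489), with rescaled differences of -0.15 and -0.07 for Fbxo4, neither called. Fbxo36 went from 7.72, 7.66 and 7.77 to 8.18, 7.99 and 8.11 (1.72-fold higher in the authors' deposited table; limma adjusted p = 0.00392). Fbxo36 overlaps Trip12 on the other strand, as Trim28 does Zbtb45, Trim69 Patl2 and Rnf208 Cysrt1, and it is not stated whether reads were counted by strand. Fbxo24 overlaps Pcolce and Fbxw10 overlaps Trim16 on the same strand. The values of these 6 genes are uncertain to that extent. Fbxo24, at 4.85, 4.87 and 5.0 against 4.69, 4.73 and 4.67, fell 2.23-fold in the authors' deposited table (limma adjusted p = 0.00904), and its difference of -0.21 was 0.02 and 0.09 when rescaled, neither called.

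Fbxw10 and Fbxw16 had low values and were both lower, as were 67.5% of all genes. Fbxw10 went from 6.15, 6.05 and 5.93 to 5.75, 5.76 and 5.72 (2.12-fold lower in the authors' deposited table; limma adjusted p = 0.00596), and was called under neither scaling, its difference of -0.30 turning to 0.08 after quantile normalization. Fbxw16 had the lowest values of the 45 genes, at 2.80, 2.64 and 2.62 against 2.57 in each knockout library. Its fold in the authors' deposited table was 2.30, but its limma adjusted p of 0.0298 became 0.0747 to 0.0763 without any 1 of the 3 knockout libraries and 0.157 without a mean-variance trend. Its difference of -0.12 became 0.18 with centred libraries, where it was called higher (limma adjusted p = 0.0107). Asb2, which directs filamins to degradation, was the only SOCS-box member. It went from 9.31, 9.46 and 9.25 to 8.98, 9.09 and 8.91 (1.52-fold lower in the authors' deposited table; limma adjusted p = 0.00635). Its rescaled differences were both -0.05 and not called.

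Of the deubiquitinase families, 2 of 3 Usp and 2 of 3 Otud genes in the table rose, beside 32.1% called higher over all genes. The table held only 3 of 55 annotated Usp and 3 of 8 Otud genes, Usp18 left out. These few genes therefore give no direction for deubiquitinases as a class. Usp10, which deubiquitinates p53 and binds the stress granule protein G3BP, went from 11.13, 11.21 and 11.15 to 11.58, 11.54 and 11.62, a limma difference of 0.42 ± 0.07 (SE, adjusted p = 0.000538) and a fold of 1.57 in the authors' deposited table. Usp31 went from 10.19, 10.14 and 10.08 to 10.62, 10.53 and 10.91 (1.86-fold higher in the authors' deposited table; limma adjusted p = 0.000995). Usp43 went from 8.65, 8.78 and 8.53 to 7.90, 8.06 and 8.22 (2.17-fold lower in the authors' deposited table; limma adjusted p = 0.00101). All 3 had separate groups, and the rescaled differences of Usp43 were -0.16 and -0.30, the first not called. Otud4 hardly varied among wild-type libraries, at 11.30, 11.29 and 11.30, and stood at 11.64, 11.56 and 11.82 in the knockout (1.51-fold higher in the authors' deposited table; limma adjusted p = 0.00212). Otud6b went from 10.52, 10.34 and 10.54 to 10.83, 10.83 and 10.95 (1.55-fold higher in the authors' deposited table; limma adjusted p = 0.00168).

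Otud7a, also known as Cezanne-2, had the largest spread of any member. Otud7a (gene ID 170711, chromosome 7, 63444745 to 63766232 in GRCm38) had log2 values of 5.82, 4.97 and 5.85 in wild-type and 4.91, 4.94 and 4.95 in knockout libraries, so the second wild-type library lay only 0.02 above the highest knockout one. The SD was 0.50 in wild-type and 0.02 in knockout libraries (n = 3 each). The fold in the authors' deposited table was 4.88 (lower). Its limma adjusted p of 0.0151 became 0.0567 without wild-type replicate 1 and 0.0626 without wild-type replicate 3, and its rescaled differences of -0.33 and -0.32 were not called.

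**Figure D4:**
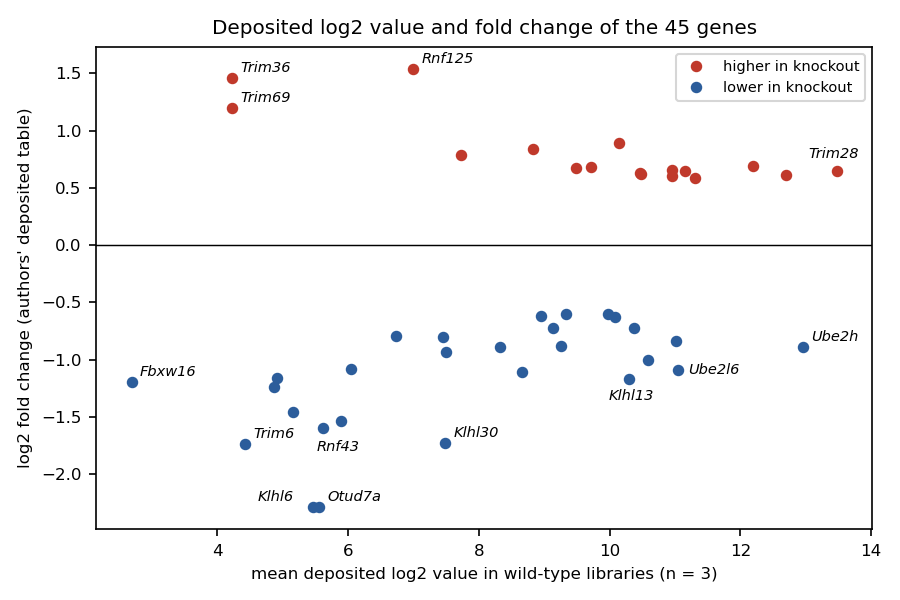
Vertical axis, log2 fold change from the authors' deposited table, against the mean log2 value in wild-type libraries (horizontal axis, n = 3) for the 45 genes, with selected genes named. Trim36 and Trim69, both at 4.23, are the higher genes furthest left, and the genes with the largest falls, Klhl6 and Otud7a, lie at 5.47 and 5.55.

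Other genes of the ubiquitin system, from 9 lists of 353 genes, were in the table for 45 genes. Of these 26 rose and 19 fell, all called by limma, beside 32.1% higher and 67.5% lower over all genes. After quantile normalization 26 were higher and 11 lower, and after centring 26 and 10, so some of the 19 falls lost their calls. Proteasome genes were mostly higher, with 8 rising and 2 falling of the 10 in the table, out of 51 listed. Psmb5, a catalytic subunit of the standard proteasome, rose 1.79-fold in the authors' deposited table, from 10.37, 10.01 and 10.28 to 10.84, 10.76 and 10.70. The 2 that fell belong to the interferon-induced form of the particle. Psmb8, a catalytic subunit of the immunoproteasome, went from 10.39, 10.46 and 10.47 to 9.96, 9.95 and 9.81 (1.82-fold lower in the authors' deposited table), and Psme1, of its activator, fell 1.57-fold in the authors' deposited table. After quantile normalization 8 proteasome genes were higher and 1 lower.

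Of 5 p97 cofactors and ubiquitin receptors in the table, out of 25, 4 rose and 1 fell. The autophagy receptor gene Sqstm1, encoding p62, went from 15.37, 15.52 and 15.44 to 16.46, 16.33 and 16.90, a rise of 3.25-fold in the authors' deposited table, and Ubxn10 fell 4.01-fold there from a wild-type mean of 5.35. Of 97 other RING ligases the table held 16, of which 9 rose and 7 fell. Lonrf2 rose 2.44-fold in the authors' deposited table, at low log2 values, from a wild-type mean of 4.44 to a knockout mean of 4.67. March1, a ligase for MHC class II molecules, showed a 3.09-fold fall there, from a mean of 5.22 to 4.85. Of 53 cullin scaffolds and adaptors 5 were in the table, with 1 higher, Spsb4 (2.96-fold in the authors' deposited table), and 4 lower, led by Kctd12 (2.22-fold in the authors' deposited table). Other deubiquitinases were represented by Uchl1, which rose 1.57-fold, and Otub2, which fell 1.69-fold in the authors' deposited table. Among 32 modifier genes 4 were in the table, and Urm1 showed a 2.05-fold rise in the authors' deposited table. The polyubiquitin gene Ubb rose 1.65-fold in the authors' deposited table (limma adjusted p = 0.0179). No subunit of the anaphase-promoting complex, of 16 listed, was in the table.

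Of the 28 genes that fell, Klhl13, Trim30d, Ube2h and Ube2l6 were called lower under both other scalings, 8 under at least 1 of them and 20 under neither. The 16 genes that rose, whose differences the upward shift enlarged, were called higher under both, with Trim69 added under both and Fbxw16 after centring. For Ube2l6 the limma difference was -0.57 after quantile normalization and -0.42 after centring, and for Klhl13 it was -0.54 and -0.43. Differences of the deposited values were smaller than the log2 folds of the authors' deposited table. The median ratio of the first to the second was 0.21 in the 13 members with mean log2 values up to 6.83 and 0.64 in the 8 members above 10.81.

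**Figure D5:**
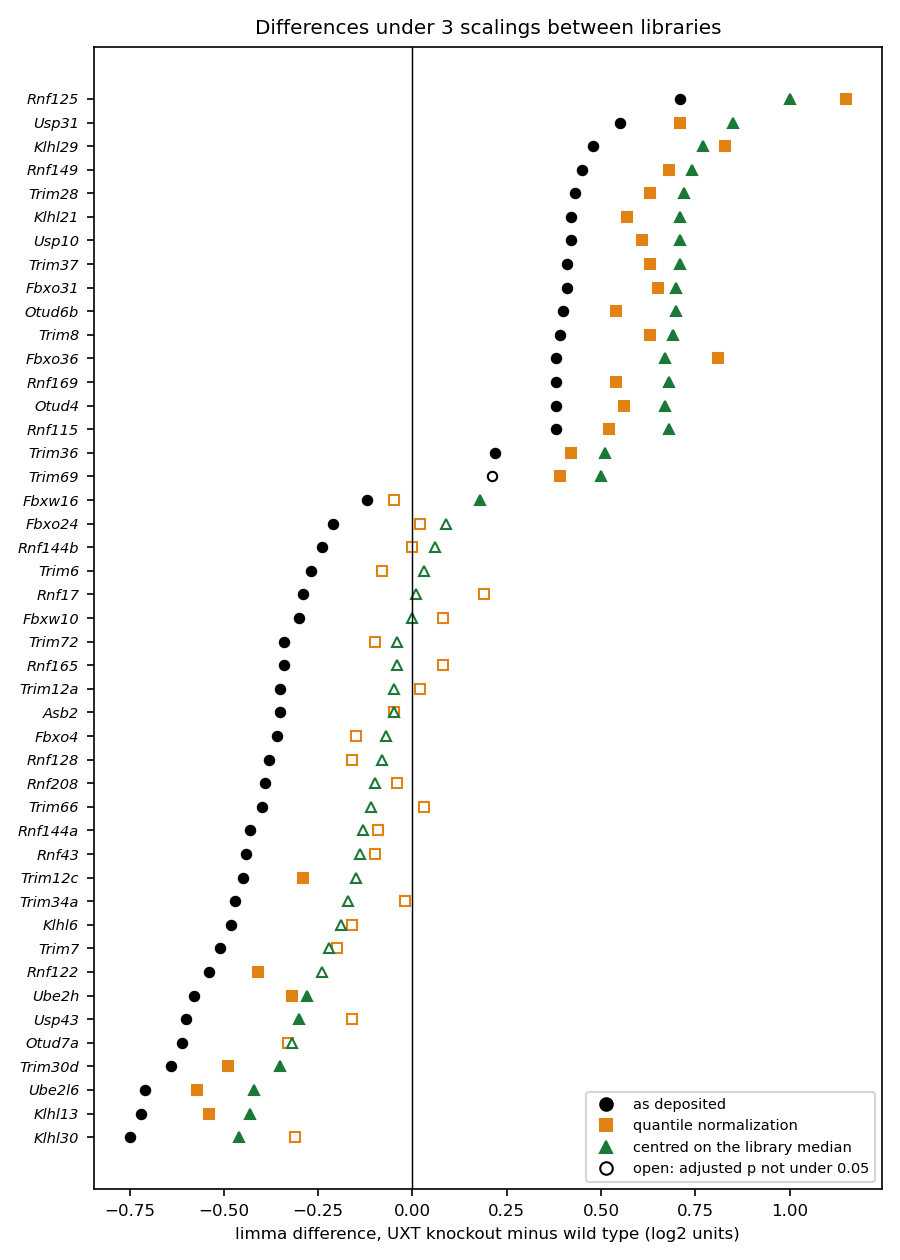
Limma difference of each of the 45 genes (horizontal axis, knockout minus wild type, log2 units) for the values as deposited, after quantile normalization and after centring each library on its median, with open symbols where the adjusted p was not under 0.05. Both other scalings shift the points to the right, by a median over all genes of 0.33 and 0.30, and filled symbols remain left of 0 under both for Klhl13, Trim30d, Ube2h and Ube2l6.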

How the data were processed

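RNA of 6 libraries, 3 wild-type and 3 UXT KO, was analysed. Per the submitters' processing notes, which give no versions or roles, FastQC, STAR, DESeq2 and mm10 are named. For the read counter, the annotation and the use of strand the entry is: not given in the sources used here. A single table of 3261 rows was analysed, and its library columns hold log2 values normalized by the authors in a way that no source states. Its signed fold score, log2 fold change, p-values and adjusted p-values were deposited by the authors. The 4 rows of 2 repeated symbols were left out.

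Limma 3.58.1 (R 4.3.3) with a mean-variance trend was fitted to all 3257 genes without covariates, with Benjamini-Hochberg adjustment over all genes and calls at 0.05. A run on simulated data left most genes unchanged, unlike the selected table, so it says nothing about false calls here. Positions came from RefSeq (GRCm38.p6, all 45 genes matched by gene ID), overlaps from GENCODE and promoters from RefSeq (35 of 45 matched). A gene model overlapped 33 of the 45 genes, on the other strand for 23 and on the same strand for 13. Transcripts were aligned with blastn 2.17.0. All members are named; values of every library are given for up to 3 rises and 3 falls per family by the authors' fold, for genes not called or overlapping, and for the widest SDs. Lists and members were chosen with earlier results of these data known. Alternatives were 2 scalings, no trend, 2 call rules, a filter on low values, repeated symbols kept, a replicate block and leaving out each library.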

Additional observations from a re-analysis of the deposited data

How the results depend on the processing

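Counts of called members were 16 higher and 28 lower with a replicate block, as without it, and 1045 and 2207 over all genes. Deviations of same-numbered libraries correlated at 0.177, -0.073 and -0.004, so the numbers were not taken as pairs. Leaving out any 1 library gave 16 to 17 members higher and 25 to 28 lower, and 1014 to 1034 higher and 2085 to 2158 lower over all genes. Quantile normalization gave 6 members lower, and 1143 genes lower overall (52.1% of calls, against 67.8%). Centring gave 6 members lower, and 1024 genes lower overall. Requiring a difference of log2(1.5) in the deposited values gave 1 member higher and 6 lower, and 218 genes higher and 956 lower. Leaving out genes with mean values up to 6.83, which tests fewer genes, gave 15 members higher and 17 lower. Over all genes it gave 930 higher and 1510 lower.

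Both scalings moved the median difference over all genes upward, by 0.33 and 0.30, so small falls cross 0 at least in part by construction, and 9 lower members did. After quantile normalization they were 0.02 for Fbxo24, 0.08 for Fbxw10, 0.08 for Rnf165, 0.19 for Rnf17, 0.02 for Trim12a and 0.03 for Trim66. After centring they were 0.09 for Fbxo24, 0.18 for Fbxw16, 0.06 for Rnf144b, 0.01 for Rnf17 and 0.03 for Trim6. At a limma adjusted p of 0.01, 16 members were higher and 22 lower, beside 943 higher and 1938 lower over all genes. Without counts, depth sets no limit that could be computed.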
